A study of Mus musculus with 9 samples.

Results

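The 10 enzymes described here make fatty acids from acetyl-CoA and then lengthen and desaturate them in the cytosol and endoplasmic reticulum. They are *Acly*, *Acss2*, *Acaca*, *Fasn*, *Scd1*, *Scd2*, *Elovl5*, *Elovl6*, *Fads1* and *Fads2*, chosen by name from the 53077 genes listed in each deposited table. The samples are RNA-seq libraries of 5TGM1-Cas9, a myeloma cell line of the mouse with constitutive Cas9, in 3 populations. One population received a control gRNA, one a gRNA against *Slc2a1*, which encodes the glucose transporter GLUT1, and one carried gRNAs against *Slc2a1* together with its relatives *Slc2a3*, *Slc2a5*, *Slc2a6* and *Slc2a8*, all sugar transporter genes. Each population had 3 replicates, which the study describes as biological, and the comparisons ask what transcripts did in cells whose sugar transporter genes were edited. The edited cultures were pools of transduced cells, not clones, and the study describes them as holding unedited alleles as well. The *Slc2a1/3/5/6/8* gRNA cells had also been sorted for reporters and expanded before the *Slc2a1* gRNA was added, so that history and the number of targets cannot be told apart. Whether replicates came from separate transductions is not given in the sources used here, and p-values measure the spread between these samples.

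Fatty acid synthesis starts from cytosolic acetyl-CoA, which ATP-citrate lyase cuts from exported citrate and acetyl-CoA synthetase makes from acetate. Acetyl-CoA carboxylase turns it into malonyl-CoA in the committed step, fatty acid synthase builds palmitate, elongases add carbons, and desaturases introduce double bonds. Many of these genes are known targets of the SREBP transcription factors, which are held back by INSIG proteins when sterols are plentiful, and glucose feeds the pathway with citrate and NADPH.

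Promoters of 7 of the 10 genes were found in the RefSeq table for GRCm38.p6, all except *Scd1*, *Scd2* and *Fads1*. The 250 bases before each start site were searched on both strands for 4 motifs. The sterol regulatory element TCACNCCAC was found in 0 of 7 members and in 1.04% of 32536 promoters. The E-box CACGTG was found in 1 of 7 members, *Elovl5*, against 6.04% of all promoters. The NF-Y box CCAAT was found in 3 of 7, *Acss2*, *Fasn* and *Elovl5*, against 33.8%, and the Sp1 box GGGCGG in 3 of 7, *Acly*, *Acss2* and *Fads2*, against 33.0%. The absence of a match says only that these letters are not in this window. The start site used for *Acaca*, at 84195438, lies inside the gene, which begins at 84129672 in GENCODE M21. The bases before that first position were thus not searched for *Acaca*. The sequences of *Acss2*, *Fasn* and *Elovl5* are shown because *Acss2* was the member that passed the test below and the other 2 hold the NF-Y boxes, with *Elovl5* also the only E-box. They are written 5′ to 3′ on the strand of the gene and stop where GENCODE M21 places an exon, and capitals mark matches on either strand. *Acss2* is chr2:155517793-155517947 on the plus strand, *Fasn* is chr11:120824548-120824797 on the minus strand and *Elovl5* is chr9:77917115-77917363 on the plus strand.

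Acss2: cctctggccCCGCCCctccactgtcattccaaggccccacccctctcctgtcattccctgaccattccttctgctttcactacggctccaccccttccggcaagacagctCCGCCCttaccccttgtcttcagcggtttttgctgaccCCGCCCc
Fasn: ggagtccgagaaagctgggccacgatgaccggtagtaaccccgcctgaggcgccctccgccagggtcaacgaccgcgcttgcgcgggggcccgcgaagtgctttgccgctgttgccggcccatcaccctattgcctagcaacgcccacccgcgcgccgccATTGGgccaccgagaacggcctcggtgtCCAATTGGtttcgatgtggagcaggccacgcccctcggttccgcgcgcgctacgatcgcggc
Elovl5: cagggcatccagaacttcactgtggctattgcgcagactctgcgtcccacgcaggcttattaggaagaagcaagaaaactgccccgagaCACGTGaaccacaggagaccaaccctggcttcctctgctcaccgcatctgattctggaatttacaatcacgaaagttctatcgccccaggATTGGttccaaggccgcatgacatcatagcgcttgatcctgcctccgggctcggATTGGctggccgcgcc

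The capitals in *Acss2* are Sp1 boxes, and its NF-Y box lies between 73 and 69 bases before the start, past the end of the stretch shown. In *Fasn* they are NF-Y boxes at 90 to 86, 62 to 58 and 59 to 55 bases before the start, the last pair overlapping. In *Elovl5* the E-box lies 161 to 156 bases and the NF-Y boxes 71 to 67 and 17 to 13 bases before the start. A match is a run of letters, and no factor was measured on these promoters.

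Estimated counts per sample summed to between 21838805 and 30537105, and mitochondrial genes took 4.84 to 11.1% of them. *Slc2a1/3/5/6/8* gRNA replicate 1 had the highest mitochondrial share, and the summed TPM of the 10 enzymes (a level corrected for transcript length and library size) was lowest there at 184.1, against 259 to 378 in the other 8 samples. Of the 7 plasma cell markers checked, 6 were above 1 TPM in every population and *Tnfrsf17* was not, with summed levels from 650.0 to 1050.0 TPM. Among them *Jchain* had 52.3 to 58.5 TPM in control cells, 14.2 to 26.1 with the *Slc2a1* gRNA and 69.2 to 97.5 with the 5 gRNAs, and *Mzb1* 57.8 to 143.9, 31.4 to 122.2 and 129.4 to 171.6. Their part in the differences below was not tested. Markers of T cells, hepatocytes, adipocytes and stroma each summed to at most 1.71 TPM in any sample. Of 4 macrophage markers only *Cd68* was above 1 TPM, and the summed level was 57.0 to 97.4 TPM in control cells, against 31.1 to 47.2 with the *Slc2a1* gRNA and 33.3 to 44.1 with the 5 gRNAs. *Slc2a1* itself had a TPM of 59.5, 26.9 and 32.9 in control cells, 37.1, 28.4 and 31.4 with its own gRNA and 24.1, 31.5 and 19.1 with the 5 gRNAs. Against control its log2 fold change was -0.21 (adjusted p = 0.544) with its own gRNA and -0.66 (adjusted p = 0.029) with the 5 gRNAs. The study, with a different and paired test, reports a significant reduction of this transcript in the deleted cultures. For cultures with *Slc2a1* gRNAs it also reports fewer GLUT1-positive cells and less uptake of radioactive glucose. A frameshift need not lower a transcript, so this level is a weak check of the labels. With the 5 gRNAs, 3 of the 5 targeted transcripts were lower, 1, *Slc2a5*, was higher and 1, *Slc2a3*, did not pass the test.

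Transcripts counted for the stearoyl-CoA desaturase family in 5TGM1 cells came almost wholly from *Scd2*, and those counted for the elongases from *Elovl1* and *Elovl5*. In control gRNA-transduced cells *Scd2*, which makes monounsaturated fatty acids from saturated ones, had 163.5 ± 10.5 TPM (SD, n = 3), above 99.1% of all genes listed. Its close relative *Scd1* had at most 5 estimated counts in any sample and 11 over all 9, with 0 in 4 samples. *Scd2* held between 99.56 and 99.96% of the TPM of the *Scd* family in every sample, with *Scd3* and *Scd4* at no more than 5 and 22 estimated counts. *Scd1* shares 8.18% of its 31-base stretches with other genes and *Scd2* 6.81%, so a small part of their reads could be divided between relatives.

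*Elovl5*, which lengthens polyunsaturated acyl chains, had 29.4 ± 2.44 TPM (SD, n = 3), and *Elovl1*, an elongase of very long saturated and monounsaturated chains that is not among the 10, had 37.8 ± 5.48 (SD, n = 3). Together they held at least 99.49% of the TPM of the *Elovl* family in every sample. *Elovl6*, which carries palmitate to stearate in many tissues, was without a count in all 9 samples, and 3 counts would have corresponded to 0.0414 to 0.0575 TPM. *Fads1*, a desaturase of polyunsaturated fatty acids, had 17.3 ± 2.06 TPM (SD, n = 3). *Fads2*, which acts before it in the same route, had 0 counts in 5 samples, 8 in *Slc2a1/3/5/6/8* gRNA replicate 2 and 12 over all 9. For *Scd1* and *Fads2* 3 counts corresponded to 0.0194 to 0.072 and 0.0313 to 0.193 TPM. *Scd1*, *Fads2* and *Elovl6* did not pass edgeR's filter on low counts, so 7 of the 10 members were tested and no change in the other 3 was detectable at this depth. These limits cover counting error only. *Decr1* and *Acsl1*, which belong to lists read below, also had no count in any sample. Whether the annotation used for counting, which is not named, had a part in such zeros was not tested.

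The enzymes that supply and build the chain lay between these values. *Fasn*, fatty acid synthase, had 47.0 ± 3.90 TPM (SD, n = 3) in control cells and *Acly*, ATP-citrate lyase, had 41.0 ± 5.72 (SD, n = 3). *Acaca*, acetyl-CoA carboxylase 1, had 25.5 ± 7.80 TPM (SD, n = 3) and *Acss2*, the cytosolic and nuclear acetyl-CoA synthetase, had 13.4 ± 2.41 (SD, n = 3). *Acss2* was the lowest of the 7 and above 89.5% of the 53077 genes listed, of which 26597 had no count in any sample. In the order *Scd2*, *Fasn*, *Acly*, *Elovl5*, *Acaca*, *Fads1*, *Acss2*, the control samples of *Scd2* and *Fasn*, of *Acly* and *Elovl5* and of *Acaca* and *Fads1* did not overlap. Those of *Fasn* and *Acly*, *Elovl5* and *Acaca*, and *Fads1* and *Acss2* did. *Acacb*, the mitochondrial form of the carboxylase, took 18.7 to 36.1% of the summed *Acaca* and *Acacb* TPM in a sample.

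**Figure D1:**
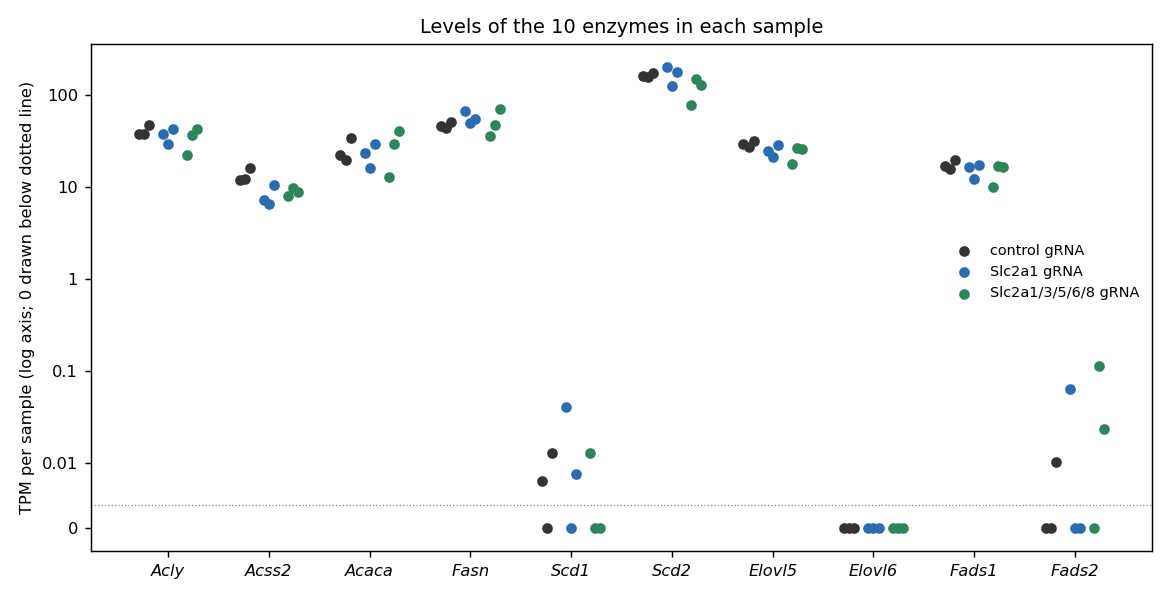
TPM of the 10 enzymes in each of the 9 samples on a log axis, with one point per replicate and colours for the 3 populations; values of 0 are drawn below the dotted line. *Scd2* lies highest, from 77.1 to 201 TPM, and *Scd1*, *Elovl6* and *Fads2* lie near or at 0.

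Part of the spread in TPM came with the effective length that Salmon assigned to a gene from its mixture of transcripts. *Acaca* had 22.1, 19.9 and 34.4 TPM in control replicates 1, 2 and 3, with effective lengths of 4650, 4859 and 3321 bases. On counts alone the same samples were alike, with 122, 121 and 118 scaled CPM (each count relative to its TMM-scaled library size). Over the 9 samples the effective length of *Acaca* ran from 3321 to 5192 bases and that of *Fasn* from 5699 to 8216, while that of *Scd2* stayed between 5146 and 5184. *Acaca* also shares 33.5% of its 31-base stretches with other genes, mainly *Gm5182*, which had 45.3 to 103 estimated counts per sample. For this reason differences between populations are given on counts, and TPM is used for levels between genes. Scaled CPM is not corrected for effective length. For *Fasn*, control replicates 1, 2 and 3 had 6296, 6974 and 8216 bases and 344, 382 and 434 scaled CPM, in the same order. In both edited populations the longest effective length of *Fasn* did not go with its highest scaled CPM.

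**Figure D2:**
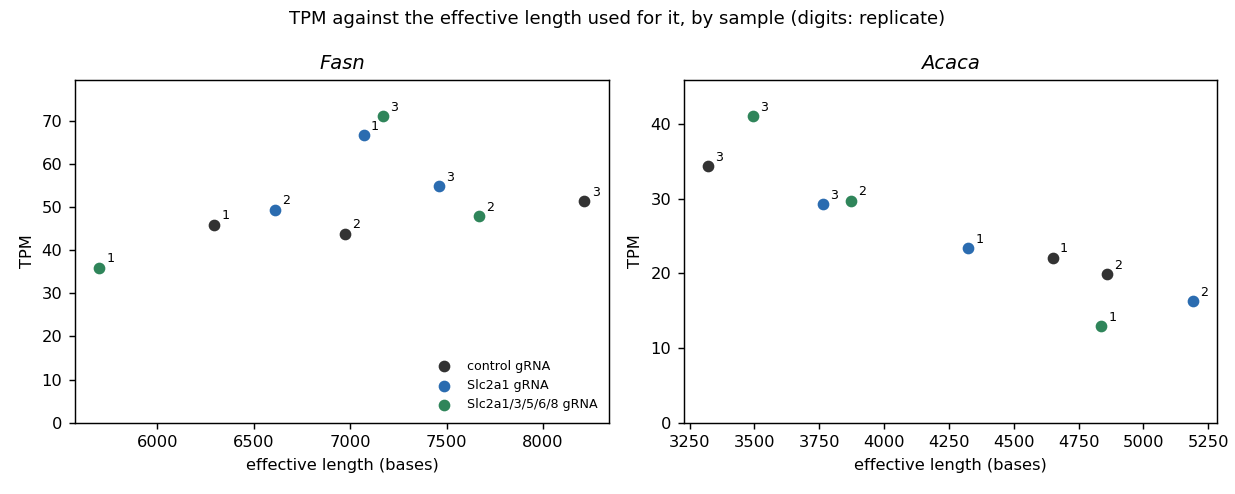
TPM of *Fasn* (left) and *Acaca* (right) against the effective length in bases used for each sample, with the replicate number beside each point and colours for the populations. The *Acaca* samples with short effective lengths have the high TPM values, up to 41.0 at 3493 bases, and *Fasn* shows no such order.

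With the *Slc2a1* gRNA, *Acss2* was the one member called. It had 37.2, 39.7 and 37.4 scaled CPM in control replicates 1, 2 and 3, and 22.6, 23.9 and 30.2 in *Slc2a1* gRNA-transduced cells. All 3 edited samples lay under all 3 controls. The log2 fold change was -0.58 (standard error 0.14, 95% interval -0.88 to -0.27, adjusted p = 0.0366 by the quasi-likelihood test of edgeR), a mean fall of 32.9%. On TPM the values were 11.9, 12.1 and 16.2 against 7.24, 6.54 and 10.5, again without overlap. This was 1 of 7 members tested, where 4.64% of all 13834 genes were called, and 2.39% were called lower, so the count says nothing particular about the 7 as a group. The call was lost, with an adjusted p from 0.157 to 0.225, without any 1 of the 3 controls or without edited replicate 1 or 2, and with an adjusted p of 0.0863 when effective lengths entered as an offset and of 0.119 and 0.11 with limma on TPM.

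*Fasn* stood higher in the same cells without passing the test. Control replicates had 344, 382 and 434 scaled CPM and *Slc2a1* gRNA replicates 608, 453 and 483. Every edited sample was above every control, the highest being edited replicate 1. *Acss2* and *Fasn* were the 2 of 7 members without overlap here, where 26.2% of all genes tested did not overlap, so the count says nothing particular about them. On TPM *Fasn* overlapped, with edited replicate 2 at 49.4 under control replicate 3 at 51.3. The log2 fold change was 0.43 (standard error 0.17, 95% interval 0.05 to 0.80) with an unadjusted p of 0.029 and an adjusted p of 0.17. It passed in 2 alternative fits, without a filter on low counts (adjusted p = 0.0197) and with only the control and *Slc2a1* gRNA samples (adjusted p = 0.025). Without *Slc2a1* gRNA replicate 1 it was 0.14 (adjusted p = 0.678).

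The other 5 members tested had log2 fold changes between -0.10 and 0.18 with the *Slc2a1* gRNA. *Acly* was at 180 to 187 scaled CPM in controls and at 194, 160 and 200 in the edited samples. Its log2 fold change was 0.00 with a 95% interval of -0.27 to 0.27. *Acaca* was at 0.06 (-0.24 to 0.37), *Fads1* at -0.03 (-0.30 to 0.24) and *Elovl5* at -0.10 (-0.32 to 0.13). *Scd2* had 984, 999 and 930 scaled CPM in controls and 1339, 891 and 1075 in edited samples, which overlap, with a log2 fold change of 0.18 (-0.18 to 0.55). The median over the 7 was 0.00, as was that over all genes tested, at -0.00.

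**Figure D3:**
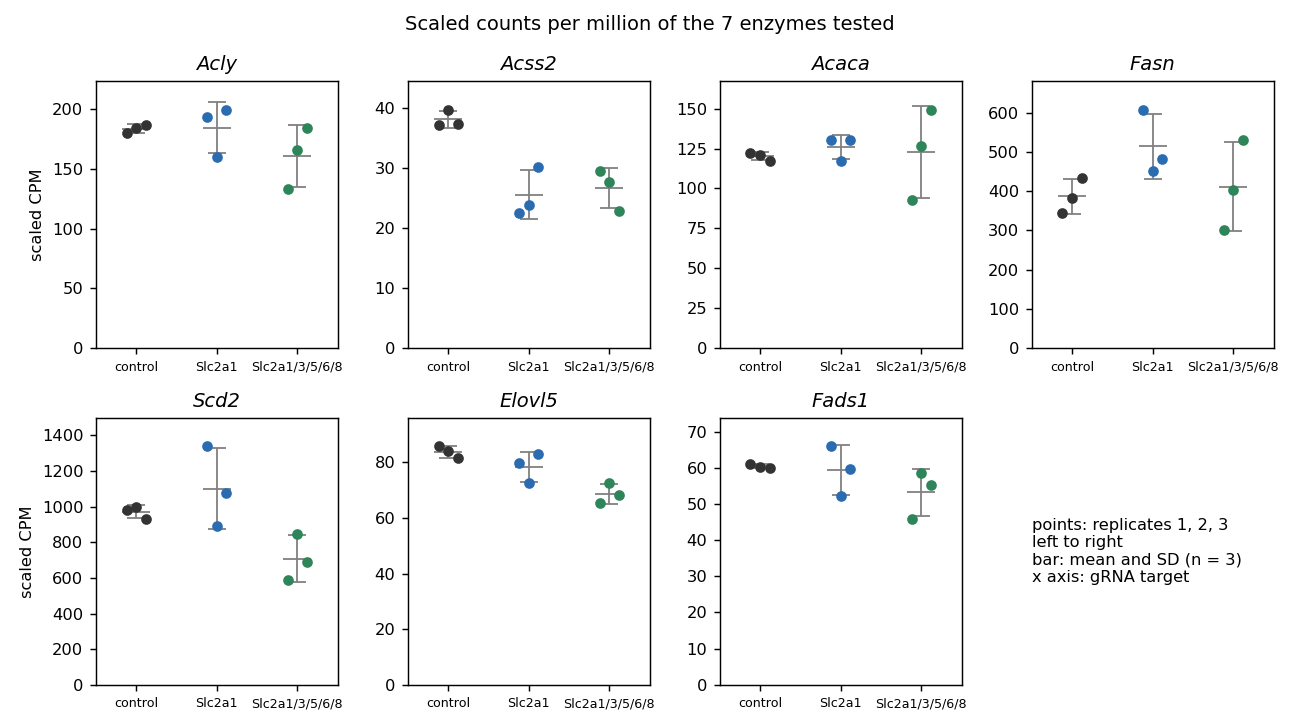
Scaled CPM of the 7 tested enzymes in control, *Slc2a1* gRNA and *Slc2a1/3/5/6/8* gRNA cells, one panel per gene with the axis from 0, points for replicates 1 to 3 from left to right, and bars for mean and SD (n = 3). For *Acss2* all 6 edited samples lie between 22.6 and 30.2, under the controls at 37.2 to 39.7, and for *Scd2* the samples with 5 gRNAs lie lowest.

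With the *Slc2a1/3/5/6/8* gRNAs, *Acss2* was again the one member called, and it was compared with the same control samples. The edited samples had 29.4, 27.6 and 22.9 scaled CPM, all under the controls at 37.2 to 39.7. The log2 fold change was -0.52 (standard error 0.14, 95% interval -0.82 to -0.21, adjusted p = 0.0259), a mean fall of 30.1%. Among all genes 15.9% were called, and 7.44% were called lower, so 1 of 7 says nothing particular about the members. Between the edited populations *Acss2* differed by 0.06 on the log2 scale (-0.25 to 0.37, adjusted p = 0.858). Without the sample of high mitochondrial share, replicate 1 of the 5 gRNAs, the fold change against control was -0.65 (adjusted p = 0.00962). The call was lost without replicate 3 (adjusted p = 0.155), replicate 2 (0.0537), or any 1 of the 3 controls (0.0959 to 0.119), with effective lengths as an offset (0.0657) and with limma on TPM (0.145 and 0.14).

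*Scd2* had the largest difference of the 7 members between the edited populations. With the 5 gRNAs it had 588, 849 and 688 scaled CPM, under all controls at 930 to 999 and under all *Slc2a1* gRNA samples at 891 to 1339. On TPM it was again under all controls, but replicates 2 and 3, at 150.03 and 127, were above *Slc2a1* gRNA replicate 2 at 124. Replicate 1, the sample of high mitochondrial share, was the lowest. The log2 fold change against control was -0.45 (standard error 0.17, 95% interval -0.82 to -0.09, adjusted p = 0.0846), and against the *Slc2a1* gRNA cells it was -0.64 (standard error 0.17, -1.0 to -0.27, adjusted p = 0.0734). Neither passed in edgeR's test and both did with DESeq2, at adjusted p values of 0.0242 and 0.00296, and without a filter on low counts, at 0.00551 and 0.000101. Without replicate 1 of the 5 gRNAs the values were -0.27 (adjusted p = 0.236) and -0.43 (adjusted p = 0.132). The part of mitochondrial share in this difference was not tested.

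*Elovl5* and *Fads1* lay a little lower with the 5 gRNAs. *Elovl5* had 85.8, 84.2 and 81.5 scaled CPM in controls and 65.3, 72.6 and 68.2 with the 5 gRNAs. The groups did not overlap, and the log2 fold change was -0.29 (standard error 0.11, -0.52 to -0.06, adjusted p = 0.0829). *Fads1* had 61.1, 60.3 and 59.95 scaled CPM in controls, the narrowest spread of the 7, and 46.0, 58.5 and 55.2 with the 5 gRNAs. These too did not overlap, with a log2 fold change of -0.18 (-0.46 to 0.09, adjusted p = 0.341). In TPM the edited and control samples of *Fads1* did overlap. Groups thus did not overlap for 4 of the 7 members, 1 of which was called, where 34.2% of all 13834 genes tested did not overlap and 15.9% were called.

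No difference in the enzymes that supply and build the chain, other than that of *Acss2*, passed the test with the 5 gRNAs. *Fasn* had 302, 403 and 531 scaled CPM, with replicate 1 under and replicate 3 over all controls, and a log2 fold change of 0.08 (-0.30 to 0.45, adjusted p = 0.795). *Acaca* had 92.5, 127 and 149 against 118 to 122 in controls, at 0.01 (-0.29 to 0.32, adjusted p = 0.964). *Acly* had 133, 166 and 184 against 180 to 187, at -0.20 (-0.47 to 0.07, adjusted p = 0.304). Replicate 1 was the lowest of its group for every tested member except *Acss2*. Without it *Acly* was at -0.07, *Fads1* at -0.05, *Elovl5* at -0.24, *Acaca* at 0.21 and *Fasn* at 0.28, none with an adjusted p under 0.05.

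The 2 edited populations differed in 0 of 7 members in edgeR's test, where 2.31% of all genes were called. In the same test 1 member, *Scd2*, had an unadjusted p under 0.05, as had 2640 of all 13834 genes. DESeq2 called *Scd2*. The median log2 fold change of the 7 was -0.19, beside 0.00 for all genes. Against control it was -0.20 with the 5 gRNAs, beside 0.01. *Fasn* was at -0.35 (-0.73 to 0.03, adjusted p = 0.301) between the edited populations, *Elovl5* at -0.19 and *Fads1* at -0.16. In bulk RNA, fewer cells of a kind and less RNA per cell cannot be told apart.

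**Figure D4:**
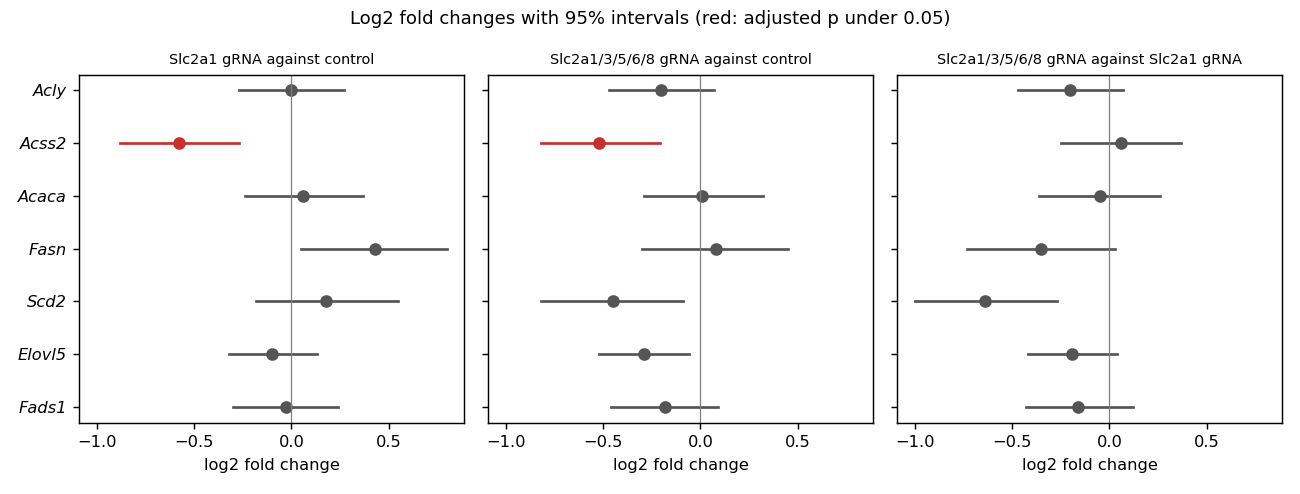
Log2 fold changes (points) with 95% intervals (lines) of the 7 tested enzymes in the 3 comparisons, red where the adjusted p from edgeR is under 0.05. *Acss2* at -0.58 and -0.52 is red against control, and *Scd2* at -0.64 lies farthest from 0 between the edited populations.

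Deviations of the members other than *Acss2* correlated positively in every pair. Over the 9 samples, which share libraries, depth and populations, deviations of log2 scaled CPM from the population mean correlated between -0.67 and 0.95 in 21 pairs, with a median of 0.64. *Scd2* and *Fads1* were most alike at 0.95, and *Acly* and *Acaca* reached 0.91. The 15 pairs without *Acss2* ran from 0.26 to 0.95, and the 6 pairs with it from -0.67 with *Fasn* to 0.28 with *Elovl5*, 5 of them negative. These values describe 9 samples, of which *Slc2a1/3/5/6/8* gRNA replicate 1 was low for 6 of the 7.

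On GRCm38 in GENCODE M21, *Acly* (100476353 to 100528000, minus strand), *Acaca* (84129672 to 84401651, plus strand) and *Fasn* (120805846 to 120824547, minus strand) lie on chromosome 11. Chromosome 19 holds both desaturase pairs. *Scd2* (44293674 to 44306864, plus strand) and *Scd1* (44394455 to 44407879, minus strand) form one pair, and the other is *Fads2* (10062765 to 10101746, minus strand) and *Fads1* (10182888 to 10196877, plus strand). In each pair a gene with many counts and one with few are on opposite strands. *Elovl5* is on chromosome 9 (77917364 to 77984519, plus strand) and *Elovl6* on chromosome 3 (129532355 to 129638495, plus strand).

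*Acss2* lies on chromosome 2 of GRCm38 from 155517948 to 155585724 on the plus strand, and 9.12% of its exonic bases overlap exons of genes on the other strand in GENCODE M21. *Ggt7* covers 197 of these bases near its start, *Gss* 395 and *Acss2os* 335. *Acss2os* had no count in any sample. The counting is not stated to use strand, so reads in these stretches cannot be assigned to one gene with certainty. *Ggt7* was at -0.45 (adjusted p = 0.0801) with the *Slc2a1* gRNA and at -0.69 (adjusted p = 0.00684) with the 5 gRNAs, and *Gss* at -0.10 and -0.16, neither called. Their part in the *Acss2* difference was not tested. *Fasn*, *Acly*, *Elovl5* and *Fads1* share no 31-base stretch with another gene and no exonic base with one.

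Some of the genes known to control these enzymes changed in both edited populations. *Insig1*, which holds SREBP back and is itself a target of it, had 234, 273 and 260 scaled CPM in controls, 130, 127 and 176 with the *Slc2a1* gRNA and 85.2, 98.1 and 80.6 with the 5 gRNAs. The 3 populations did not overlap. Its log2 fold change was -0.83 (adjusted p = 0.0105) with the *Slc2a1* gRNA, -1.53 (adjusted p = 7.18e-05) with the 5 gRNAs and -0.70 (adjusted p = 0.0215) between them, the last call being lost in 7 of 18 alternative fits. *Srebf2*, the SREBP gene tied most to sterol synthesis, fell by 0.73 with the 5 gRNAs (adjusted p = 0.00373) and was at -0.39 (adjusted p = 0.0958) with the *Slc2a1* gRNA, where 4 of 18 alternative fits called it, DESeq2 among them (adjusted p = 0.024). *Srebf1*, whose products act most on fatty acid synthesis, was at 0.38 (adjusted p = 0.0618) and at 0.04 (adjusted p = 0.846), the latter turning to -0.21 with effective lengths as an offset. The former was called in 5 of 18 alternative fits, DESeq2 among them (adjusted p = 0.015). *Scap*, the escort of SREBP, rose by 0.81 (adjusted p = 0.017) and by 0.74 (adjusted p = 0.00762), the latter call lost in 3 of 18 alternative fits. With the *Slc2a1* gRNA the calls of *Scap* and *Insig1* were lost in 7 and 6 of the 18 alternative fits, that of *Scap* without any 1 control (adjusted p from 0.0872 to 0.0941) and with limma (adjusted p = 0.217 and 0.202). *Insig2* was at -0.26 and -0.22 and *Mlxip*, a glucose-responsive factor, at -0.17 and -0.24, none of them called. *Mlxipl*, which encodes ChREBP, had at most 2 estimated counts in a sample. Of 14 regulators listed, 11 were tested, and 1 was higher and 1 lower with the *Slc2a1* gRNA, and 1 higher and 3 lower with the 5 gRNAs, the third of these being the LXR gene *Nr1h2* at -0.39 (adjusted p = 0.0323), a call lost in 7 of the 18 fits. Over all genes tested, 4.64% and 15.9% were called.

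Genes of sterol synthesis, set beside the enzymes because SREBP drives both routes, were mostly lower. Of 10 tested, 7 were lower with the *Slc2a1* gRNA and 9 with the 5 gRNAs, where 2.39% and 7.44% of all genes were called lower. None of the 10 was called higher, and the medians were -0.76 and -0.99, beside 0.00 and -0.20 for the fatty acid enzymes. *Hmgcs1*, which makes the precursor of mevalonate, fell with log2 fold changes of -1.18 and -1.69, and *Fdft1*, squalene synthase, with -0.93 and -1.51. *Fdps* was at -0.77 and -1.35 and *Mvd* at -0.89 and -1.02, all called. The calls of *Hmgcs1*, *Fdft1*, *Fdps* and *Mvd* were lost in 2, 5, 3 and 3 of the 18 alternative fits with the *Slc2a1* gRNA, and in 0 with the 5 gRNAs. The difference between the sterol and fatty acid lists was not tested.

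**Figure D5:**
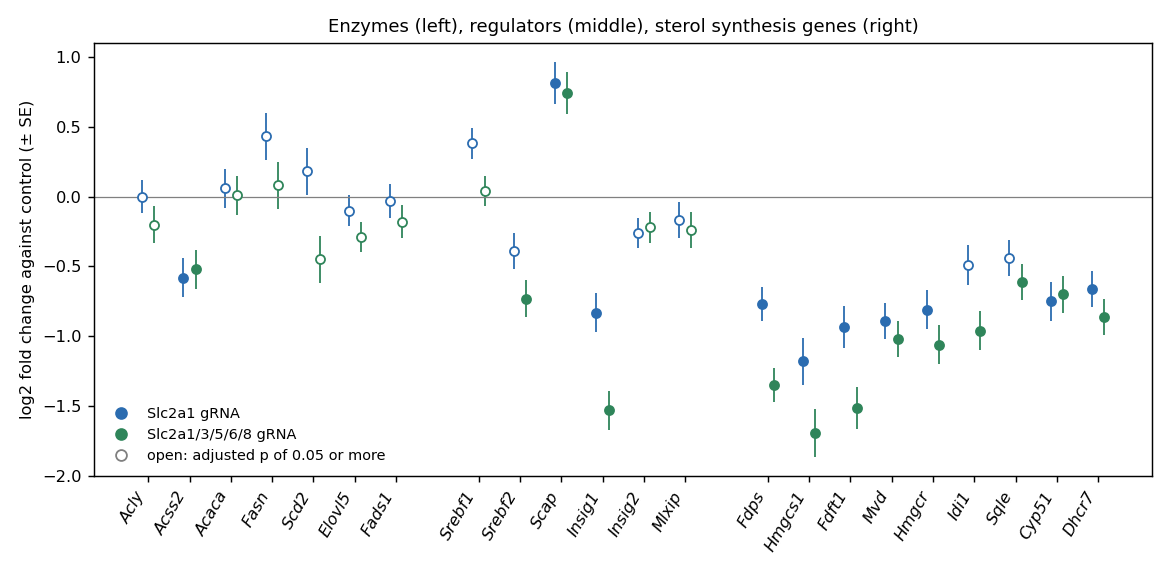
Log2 fold change against control with its standard error for the 7 enzymes (left), 6 regulators (middle) and 9 sterol synthesis genes (right), blue for the *Slc2a1* gRNA and green for the 5 gRNAs, filled where the adjusted p is under 0.05. The sterol genes lie below 0 throughout, to -1.69 for *Hmgcs1*, while among the enzymes only *Acss2* is filled.

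Partners of the enzymes are read beside the 4.64% of all genes called with the *Slc2a1* gRNA and the 15.9% with the 5 gRNAs. Among 12 genes of citrate export and NADPH supply, edgeR called 0 with the *Slc2a1* gRNA. Of the 12, 6 had an unadjusted p under 0.05 in that test, as had 3037 of all 13834 genes. With the 5 gRNAs 1 was lower, *Slc25a1*, the mitochondrial citrate carrier that feeds *Acly*. It had 124, 97.1 and 86.4 scaled CPM in controls and 67.6, 65.6 and 61.8 with the 5 gRNAs, at -0.64 (adjusted p = 0.00478), a call lost in 2 of 18 alternative fits. Its level was lower than with the *Slc2a1* gRNA as well, at -0.57 (adjusted p = 0.0312), a call lost in 13 of the 18. Of 9 tested genes of the elongation cycle and its electron supply, *Tecr*, the last reductase of the cycle, fell by 0.57 (adjusted p = 0.00487) and *Cyb5r1* rose by 0.51 (adjusted p = 0.0275) with the 5 gRNAs, the latter call lost in 5 of the 18 fits.

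Among 12 relatives of the members 5 were tested. *Fads6*, a desaturase relative of uncertain substrate, was the one called. Its calls were with the 5 gRNAs against control and between the edited populations, where 15.9% and 2.31% of all genes were called. It had 34.6, 36.4 and 47.6 scaled CPM in controls, 53.5, 44.0 and 56.5 with the *Slc2a1* gRNA and 70.5, 85.1 and 97.9 with the 5 gRNAs. The samples with 5 gRNAs were above all others, at 1.10 against control (adjusted p = 0.000237) and 0.71 against the *Slc2a1* gRNA (adjusted p = 0.0118), the latter call lost in 4 of 18 alternative fits. *Elovl1*, *Acacb*, *Fads3* and *Scd4* were tested and not called. *Acss1* and *Elovl2* had no count in any sample, and *Acss3*, *Elovl3*, *Elovl4* and *Elovl7* had at most 12 estimated counts in a sample.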

How the data were processed

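RNA of 9 samples, 3 per population as their labels give, was prepared with oligo-dT priming and sequenced in pairs by the study. Whether the libraries keep strand is not given in the sources used here. The authors mapped reads with Salmon 1.5.1 (version per the submitters' processing notes) on Galaxy and deposited gene tables with estimated counts, TPM, length and effective length; the annotation is not given in the sources used here. The TPM that the authors deposited were used for levels and, with a pseudocount, in limma. The deposited estimated counts, rounded, went into edgeR 4.0.16 under R 4.3.3 (quasi-likelihood test, TMM, default filter on low counts, 13834 genes). All 9 samples entered one fit with the replicate number as a block, since the study states a paired test, and a Benjamini-Hochberg adjusted p under 0.05 was a call. Same-numbered control and *Slc2a1* gRNA samples deviated together across genes (correlations 0.111 to 0.215), but those of the *Slc2a1/3/5/6/8* gRNA population did so less (-0.065 to 0.162 with control, -0.107 to -0.034 with *Slc2a1* gRNA). Replicates differed by more than sampling noise, the least chi-squared per degree of freedom being 20.8. Standard errors came from the F statistic, and the fit was tested on simulated data.

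The members, the gene lists, the motifs and the markers were chosen with earlier results of these data known. All members and the main regulators are named, the relatives are named by level, and of each other list up to 4 genes with the smallest adjusted p among those called. *Ggt7*, *Gss*, *Acss2os* and *Gm5182* were named after their overlap with members was seen. Positions and overlaps came from GENCODE M21 on GRCm38. Alternatives were DESeq2 1.42.0, no block, total count normalization, no filter, a minimum of 10 counts in every sample, fits of 2 groups alone, an offset from effective lengths, limma 3.58.1 on log2(TPM + 1) and log2(TPM + 0.1), and leaving out each sample.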

Additional observations from a re-analysis of the deposited data

How the results depend on the processing

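The count of members called against control, 1 in each comparison, depended on the fit. With the *Slc2a1* gRNA it was 2 without a filter and with the 2 groups alone, which added *Fasn*, and 0 with the offset from effective lengths and with either limma fit; leaving out each sample gave 0 to 1. With the 5 gRNAs it was 2 with DESeq2, without a filter and with the 2 groups alone, which added *Scd2*, and 0 with the offset and with either limma fit; leaving out each sample gave 0 to 2, the highest without *Slc2a1* gRNA replicate 1, and without replicate 2 of the 5 gRNAs the 1 call was *Scd2* in place of *Acss2*. Between the edited populations it was 1 with DESeq2 and without a filter, and 0 to 1 with each sample left out. Without the replicate block the counts were 1, 1 and 0, the adjusted p of *Acss2* was 0.0329 and 0.0222, and no other call among the members changed.

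Over 378 fits of the 7 members, 323 kept direction and side of the threshold, 16 lost and 10 gained a call, and 29 changed sign, all of the latter for values not called. With the *Slc2a1* gRNA, *Acly* was at -0.09 with total counts, -0.0023 without a filter, -0.01 with the offset and -0.17 with limma, and -0.11 to 0.11 with each sample left out. *Acaca* was at -0.03 with total counts and at -0.14 and -0.15 with limma on log2(TPM + 1) and log2(TPM + 0.1), and -0.06 to 0.16 with each sample left out. With the 5 gRNAs *Acaca* was at -0.03 with total counts and -0.13 to 0.21 with samples left out, and between the edited populations at 0.10 with the offset, 0.17 with limma and -0.20 to 0.15. Ranges with each sample left out also crossed 0 for *Fasn* with the 5 gRNAs (-0.10 to 0.28) and, with the *Slc2a1* gRNA, for *Scd2* (-0.04 to 0.39) and *Fads1* (-0.16 to 0.09), and for *Acss2* between the edited populations (-0.07 to 0.26). *Srebf1* with the 5 gRNAs was at -0.01 with total counts, -0.21 with the offset, -0.28 and -0.29 with limma and -0.01 to 0.12 with samples left out. *Insig2* with the *Slc2a1* gRNA was at 0.01 with the offset and -0.31 to -0.23 with samples left out.

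The cause of these shifts was not tested. For 32 other named genes, 972 fits lost 215 calls, gained 9 and turned 6 values. Counts of calls moved for all genes too: with the *Slc2a1* gRNA, 4.64% of all genes were called, against 16.7% with the 2 groups alone, 1.19% with the offset, 0 of 13834 with limma on log2(TPM + 1), with 2367 at an unadjusted p under 0.05, 0.376% with limma on log2(TPM + 0.1), and 0.0773 to 0.507% with a control left out; with the 5 gRNAs limma called 3.13 and 3.34%, against 15.9%. Limma on TPM moved the median of all genes with the *Slc2a1* gRNA to -0.111 and -0.157, and total counts to -0.095 with 23.9% of calls higher, against 48.4% with TMM; with the 5 gRNAs 41.9% were higher against 53.3%, and between the edited populations 69.5% against 58.9%. With 3 samples in a population, standard errors of the members were 0.11 to 0.17 on the log2 scale, so small differences may have been missed. Annotation, sample history and editing efficiency per sample were not analysed here.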

Other observations

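Mitochondria hold a fatty acid synthesis route of their own, which makes the octanoyl chain used for lipoic acid. Of its 7 tested genes, 4 rose and 0 fell against control in *Slc2a1/3/5/6/8* gRNA-transduced cells, where 15.9% of all genes were called, with a median log2 fold change of 0.44, beside 0.01 for all genes tested. *Lipt2*, which transfers the octanoyl chain, rose by 1.58 (adjusted p = 0.00169), *Mcat* by 0.62 (adjusted p = 0.0202), *Oxsm* by 0.53 (adjusted p = 0.0246) and *Mecr* by 0.44 (adjusted p = 0.0475). The call of *Lipt2* held in the 18 alternative fits, and those of *Mcat*, *Oxsm* and *Mecr* were lost in 7, 9 and 10 of them. With the *Slc2a1* gRNA 0 of the 7 were called in edgeR's test. Of the 7, 2 had an unadjusted p under 0.05 there, as had 3037 of all 13834 genes. No test compared the list with other genes.

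Genes that use or activate fatty acids were called in both directions with the 5 gRNAs, and lower alone with the *Slc2a1* gRNA. Among 16 tested genes of glycerolipid synthesis, 3 were lower with the *Slc2a1* gRNA, and 3 were higher and 4 lower with the 5 gRNAs, where 4.64% and 15.9% of all genes were called. *Lpin1*, a phosphatidate phosphatase, had 44.9 to 47.6 scaled CPM in controls, 21.5, 22.2 and 33.5 with the *Slc2a1* gRNA and 17.0, 28.5 and 18.6 with the 5 gRNAs, and fell, with log2 fold changes of -0.85 (adjusted p = 0.0277) and -1.13 (adjusted p = 0.00276). *Dgat1*, which completes triacylglycerol, was called at -0.55 and -0.58, and *Pnpla2*, a triacylglycerol lipase, at -0.42 and -0.50. With the *Slc2a1* gRNA the calls of *Lpin1*, *Dgat1* and *Pnpla2* were lost in 8, 9 and 8 of the 18 alternative fits, and with the 5 gRNAs in 2, 3 and 5. *Gpam*, which starts glycerolipid synthesis at mitochondria, rose by 0.57 (adjusted p = 0.00674) with the 5 gRNAs. Of 9 tested genes of acyl-CoA formation and hydrolysis, *Acot2* rose by 1.21 (adjusted p = 0.00207) and *Dbi*, the acyl-CoA binding protein, fell by 0.55 (adjusted p = 0.0225) with the 5 gRNAs. The calls of *Gpam*, *Acot2* and *Dbi* were lost in 3, 1 and 6 of the 18 fits. Of 19 tested genes of fatty acid oxidation, *Cpt1a*, which admits acyl chains to mitochondria, fell by 0.67 (adjusted p = 0.0429) and *Etfdh* fell by 0.52 (adjusted p = 0.0406) with the *Slc2a1* gRNA, calls lost in 9 and 8 of the 18 alternative fits. With the 5 gRNAs 0 of the 19 were called in edgeR's test. Of the 19, 4 had an unadjusted p under 0.05 there, as had 4342 of all 13834 genes.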
